A study of Mus musculus with 9 samples.

Results

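ATAC-Seq, which reads open chromatin from the sites that the Tn5 transposase can cut, was followed at 10 epithelial genes while mouse embryonic fibroblasts were reprogrammed to induced pluripotent stem cells. The genes were chosen by name, with no measured value in the rule: Cdh1, Epcam, Ocln, Cldn3, Cldn4, Cldn6, Cldn7, Krt8, Krt18 and Esrp1, 10 of the 22367 protein-coding genes of the annotation. Each gene's window ran from 10 kb upstream of its start to 10 kb past its end. Its promoter, the 3 kb upstream of the transcription start site (TSS) of any annotated transcript, was counted apart.

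All 9 libraries derived from fibroblasts of E13.5 embryos whose Oct4 locus carries an IRES-EGFP reporter, so every group shares that allele. All cells except D0 had received retroviruses for Oct4, Sox2, Klf4 and c-Myc (OSKM). D0 was the parental fibroblast culture and D3 was the unsorted culture at day 3. D6T- and D9T- were the Thy-1-negative cells of days 6 and 9, D12S+ and D16S+ the SSEA-1-positive cells of days 12 and 16, and iPSCs the induced pluripotent stem cells. The other two libraries, D6 siNT and D6 siH3.3, were day 6 cells that had been given 50 nM of a non-targeting siRNA or of siRNAs against H3f3a and H3f3b, both genes of the histone variant H3.3. The siRNAs were given at day -2, and the paper describes this early knockdown as transient. The labels call these day 6 cells Thy-1-negative, whereas the study's sample sheet lists no sorting for them, so this was left unresolved. Each condition had 1 library, so no test between conditions was made and all intervals below cover counting error only. Sorting, time and library cannot be told apart.

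In fibroblasts, epithelial genes are silent. During reprogramming the cells pass through a mesenchymal-epithelial transition, in which adhesion through E-cadherin, tight junctions and a simple epithelial keratin cytoskeleton replace the fibroblast programme. Factors of the Snail and Zeb families, which bind the E-box CAGGTG, are known repressors of Cdh1 and other epithelial genes, and Klf4, which binds GC-rich sites, is a known activator of Cdh1.

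Total tags lay between 13213117 in D9T- and 31714845 in D0, and merged regions between 36708 in D9T- and 133132 in D6T-. A region's level is given as its pileup, how many extended tags cover its summit, per 1000000 tags of the library (PPM). The lowest pileup called was 0.331 to 0.530 PPM, so an uncalled promoter is one below about that level and not one known to be closed. Signal strength also differed: over the 9818 genes with a promoter region in every library, the median promoter pileup was 0.946 PPM at D0, 2.28 at D3, 3.83 in D6T-, 1.51 in D9T-, 2.44 in D12S+, 2.31 in D16S+, 1.20 in iPSCs, 1.38 in siNT and 1.45 in siH3.3. Levels below are therefore also given as a percentage of this common-promoter median. As a check of the labels, the promoter of Thy1 had a region at D0 (0.410 PPM) and D3 (0.562) and none in D6T-, D9T- or either siRNA library. Of 9 pluripotency marker promoters, 2 had a region at D0 against 9 of 9 in D16S+ and iPSCs. Over all protein-coding genes the share was 58.0% at D0, 63.0% in D16S+ and 63.9% in iPSCs. Thy1 again had a promoter region in D12S+, D16S+ and iPSCs, at 0.489 to 0.625 PPM, and of 8 fibroblast marker promoters 6 were called at D0 and 4 in iPSCs, Thy1, Col1a1, Pdgfrb and Lum, of which Lum had no call at D0.

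At D0 the epithelial promoters were largely without called regions. Only 1 of 10, that of Cldn6, had a region, while 58.0% of all protein-coding genes did. The count was 8 of 10 at D3 (67.8% of all genes), 7 of 10 in D6T- (68.3%), 4 of 10 in D9T- (50.4%), 8 of 10 in D12S+ (63.0%), and 10 of 10 in D16S+ (63.0%) and in iPSCs (63.9%). The epithelial genes thus started far below the share over all genes and ended above it. In D9T-, the shallowest library, their count was near that share. With a promoter narrowed to 1 kb upstream and 100 bp downstream of the TSS, the D0 count was 0 of 10, and 2 of 10 in D9T-.

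Against D0, promoters without a region there gained one in 7 of 9 cases at D3, where 27.4% of the 9399 protein-coding genes with none at D0 did so. The gain was seen in 6 of 9 in D6T- (29.4% of all such genes), 3 of 9 in D9T- (8.58%), 7 of 9 in D12S+ (22.4%), 9 of 9 in D16S+ (24.0%) and 9 of 9 in iPSCs (25.2%). These comparisons all share the 1 D0 library. When only the 36708 strongest regions of each library were kept, 1 of 10 promoters was called at D3 and 3 of 10 in D6T-, so the early gains were mostly weak regions. All 7 gained at D3 stood at 20.3% to 31.9% of the common-promoter median. The lowest pileup called at D0 stood at 36.7%, so a promoter at those levels would not have been called there. The same held in D6T- for Ocln, Cldn4, Krt18 and Esrp1, at 17.1% to 22.0%, but not for Cldn3 (40.2%) or Krt8 (75.6%).

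**Figure D1:**
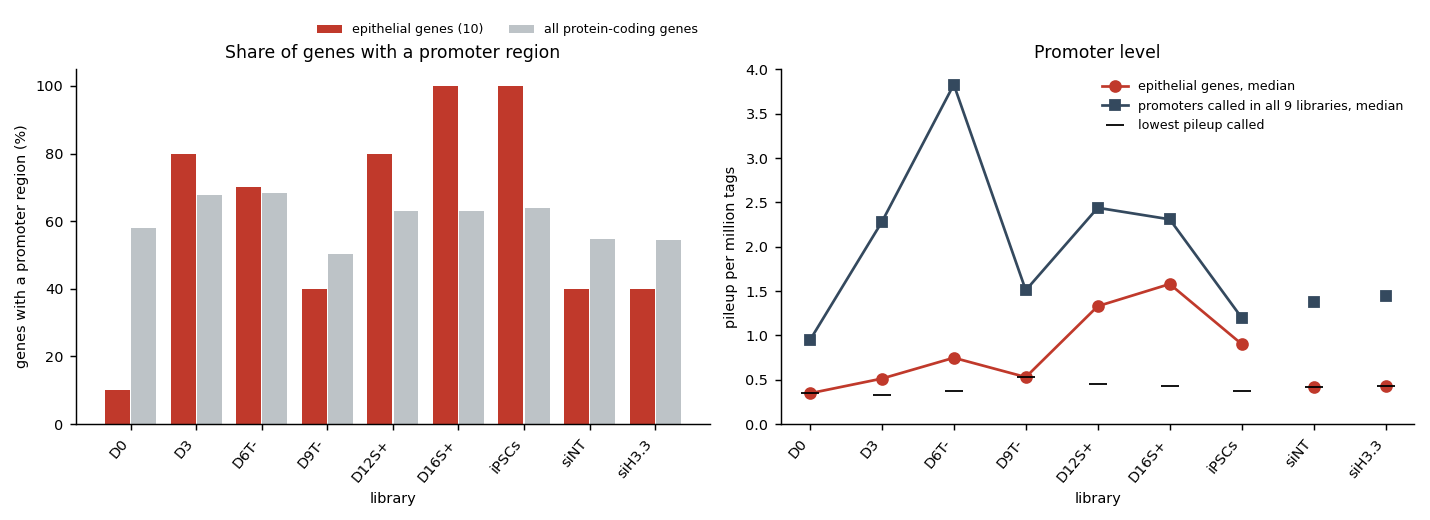
Left, percentage of the 10 epithelial genes (red bars) and of all protein-coding genes (grey bars) with a promoter region in each library. Right, median highest promoter pileup in PPM of the epithelial genes (red circles, uncalled promoters set to the library's lowest called pileup, black dashes) and of the promoters called in all 9 libraries (dark squares). The epithelial median reached 1.58 PPM in D16S+ while the common promoters peaked at 3.83 in D6T-.

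The median level of the 10 promoters, with uncalled promoters set to the lowest pileup called, was 0.347 PPM at D0, 0.513 at D3, 0.748 in D6T-, 0.530 in D9T-, 1.33 in D12S+, 1.58 in D16S+ and 0.903 in iPSCs. The plot of share and level shows that this course did not run with the common promoters, which were highest in D6T-. Expressed as a percentage of the common-promoter median, the epithelial median was at most 36.7% at D0, 22.5% at D3, 19.5% in D6T-, at most 35.0% in D9T-, 54.7% in D12S+, 68.4% in D16S+ and 75.0% in iPSCs. On this scale the D3 and D6T- values lay under the D0 bound, and the SSEA-1-positive libraries and iPSCs lay above it. The promoter folds against D0 given below for single genes are in PPM. Over protein-coding promoters called in either library, the median fold was 3.64 in D6T-, 2.40 in D12S+, 2.31 in D16S+ and 1.31 in iPSCs.

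Over the whole window and in PPM, the share of genes at least 2-fold above D0 was below or near that over all genes up to D12S+. In D16S+ and iPSCs the share was above that over all genes, though by few genes. It was 1 of 10 at D3 (48.4% of all protein-coding genes with a region in either library), 6 of 9 in D6T- (82.5%), 0 of 8 in D9T- (21.7%), 5 of 9 in D12S+ (54.6%), 7 of 10 in D16S+ (50.6%) and 2 of 10 in iPSCs (8.85%). The pair in iPSCs was Cldn3 and Cldn7, and the count there fell to 1 with equal numbers of regions, with a −log10 q of at least 3 or with the deposited fold enrichment, and to 0 when scaled by the common promoters. Ocln was at least 2-fold lower in iPSCs, 1 of 10 (4.48% of all genes). At D0 a region was called in 8 of 10 windows, all but those of Epcam and Cldn7, near the 78.7% of all protein-coding genes. The low D0 count was thus limited to the promoters, at 1 of 10 against 58.0%.

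**Figure D2:**
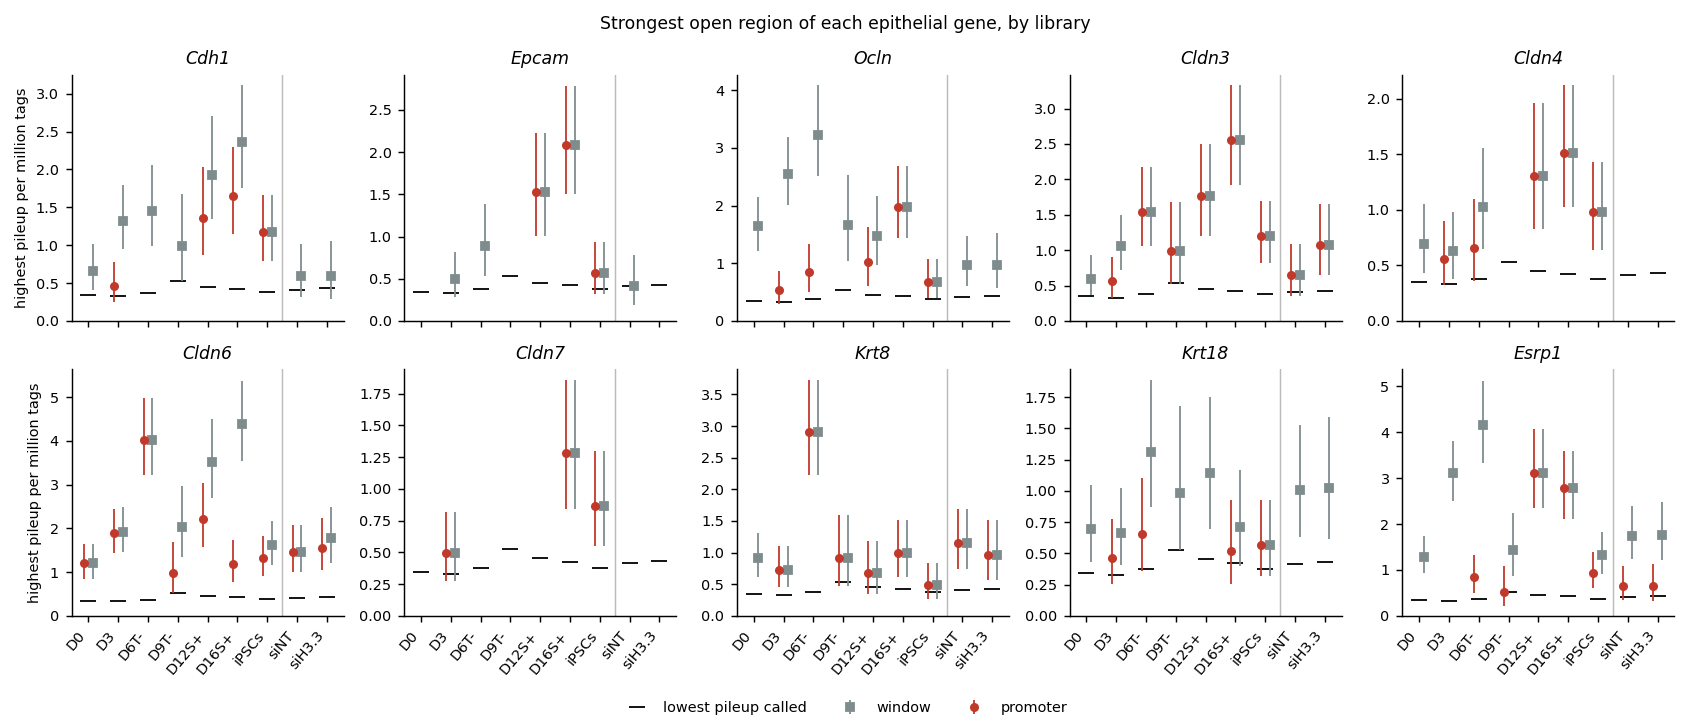
Highest pileup in PPM in the promoter (red circles) and in the window (grey squares) of each gene, by library, with exact Poisson 95% intervals; black dashes mark the lowest pileup called and no symbol means no region. Most promoter symbols first appear at D3 or later, whereas most windows held a region at D0.

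E-cadherin, the adhesion receptor of adherens junctions, is encoded by Cdh1 (mm9, chr8:109127251-109194146, plus strand). Its promoter region had no call at D0, was called at 0.463 PPM at D3, was not called in D6T- or D9T-, and was called at 1.36 in D12S+, 1.65 in D16S+ and 1.17 in iPSCs. The promoter was therefore called mainly in the SSEA-1-positive libraries and iPSCs, and the D16S+ level (95% interval 1.15 to 2.30) was at least 4.77-fold above D0, beside a median of 2.31-fold over the protein-coding promoters called in either library, with an uncalled one set at the lowest pileup called. It made up 55.8% of the common-promoter median in D12S+, 71.4% in D16S+ and 96.9% in iPSCs. The bases upstream of the TSS under the D16S+ summit are shown because they hold 3 E-boxes, a pair of them abutting head to head, and a GC box (mm9, plus strand, chr8:109127121-109127250, E-boxes CAGGTG or CACCTG and GC boxes GGGCGG or CCGCCC in capitals).

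Cdh1 promoter: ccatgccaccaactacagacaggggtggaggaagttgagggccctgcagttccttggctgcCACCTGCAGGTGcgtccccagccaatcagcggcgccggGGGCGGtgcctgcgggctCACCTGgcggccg

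Inside Cdh1, a region in intron 2 with its summit 16410 bp downstream of the TSS was called in all 9 libraries. Its pileup in PPM was 0.599 at D0, 1.32 at D3, 1.45 in D6T-, 0.984 in D9T-, 1.93 in D12S+, 2.36 in D16S+, 1.17 in iPSCs, 0.597 in siNT and 0.589 in siH3.3. It was highest in D16S+ and stood at 63.3% of the common-promoter median at D0, 37.8% in D6T- and 102% in D16S+. This region, called at D0 before the promoter was, is shown because it carries an AP-1 site, TGANTCA, beside a GC box (mm9, plus strand, chr8:109143561-109143761, both in capitals).

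Cdh1 intron 2: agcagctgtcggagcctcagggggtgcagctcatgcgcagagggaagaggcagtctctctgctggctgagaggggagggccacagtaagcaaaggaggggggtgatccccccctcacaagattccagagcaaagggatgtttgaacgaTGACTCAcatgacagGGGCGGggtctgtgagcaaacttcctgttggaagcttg

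The Cdh1 window was the most subdivided, with 17 regions once overlapping calls of the libraries were joined, of which 13 lay in introns. Regions 3512 bp upstream and 12436 and 14132 bp downstream of the TSS were called in iPSCs alone.

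Epcam (chr17:88035319-88050446, plus strand) encodes an epithelial adhesion protein of the cell surface. Its promoter was called only in D12S+ (1.53 PPM), D16S+ (2.08) and iPSCs (0.564), with the summit 144 to 151 bp upstream of the TSS in each. The D16S+ level (95% interval 1.51 to 2.79) was at least 5.99-fold above D0, and in iPSCs the level was at percentile 8.40 of called promoters against percentile 56.1 in D16S+. Relative to the common-promoter median the promoter stood at 62.8% in D12S+, 89.8% in D16S+ and 46.9% in iPSCs, beside at most 36.7% at D0. A region 656 to 873 bp downstream of the TSS came first. It was called at 0.496 PPM at D3, 0.888 in D6T-, 1.53 in D12S+, 0.564 in iPSCs and 0.413 in siNT, and not at D0, in D9T- or in siH3.3. In D16S+ the promoter region itself extended over this position, so no separate region was called. The promoter window of D16S+ is printed for its E-box at the 5′ side and its GC box at the 3′ side (mm9, plus strand, chr17:88035075-88035275, both in capitals).

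Epcam promoter: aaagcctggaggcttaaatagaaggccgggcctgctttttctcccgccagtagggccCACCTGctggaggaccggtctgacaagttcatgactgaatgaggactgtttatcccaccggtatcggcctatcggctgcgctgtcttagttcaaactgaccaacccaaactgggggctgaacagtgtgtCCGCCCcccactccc

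Among the tight junction genes, Ocln (chr13:101266462-101322673, minus strand) encodes occludin, a membrane protein of the junction strands. Its promoter was called at 0.529 PPM at D3, 0.841 in D6T-, 1.02 in D12S+, 1.98 in D16S+ and 0.677 in iPSCs, and not at D0, in D9T- or in the siRNA libraries. It was highest in D16S+, at least 5.72-fold above D0. As a percentage of the common-promoter median the promoter stood at 41.9% in D12S+, 85.7% in D16S+ and 56.2% in iPSCs, beside at most 36.7% at D0. An intronic region 35816 bp downstream of the TSS ran the other way. It was called at 1.64 PPM at D0, 2.55 at D3, 3.23 in D6T-, 1.67 in D9T- and 1.08 in D12S+, and was not called in D16S+ or iPSCs, with 0.964 in siNT and 0.696 in siH3.3. As a percentage of the common-promoter median it was 173% at D0, 112% at D3, 84.1% in D6T-, 110% in D9T- and 44.2% in D12S+. The Ocln window was thereby the only one of the 10 that was at least 2-fold lower in iPSCs than at D0, with a ratio of 0.413 (95% interval 0.227 to 0.718). Intronic regions 16524 and 18368 bp downstream were likewise uncalled in D12S+, D16S+ and iPSCs. The strongest of them is shown with its AP-1 site in capitals (mm9, minus strand, chr13:101286757-101286957).

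Ocln intron: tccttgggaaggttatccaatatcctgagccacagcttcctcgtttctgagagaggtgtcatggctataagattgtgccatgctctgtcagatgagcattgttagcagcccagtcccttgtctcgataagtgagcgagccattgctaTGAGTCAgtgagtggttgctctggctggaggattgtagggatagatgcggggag

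The claudins form the paracellular seal, and 4 of them were examined. Cldn3 (chr5:135462084-135463342, plus strand) had a promoter region in all 8 libraries other than D0. Its promoter pileup in PPM was 0.562 at D3, 1.54 in D6T-, 0.984 in D9T-, 1.76 in D12S+, 2.55 in D16S+, 1.20 in iPSCs, 0.643 in siNT and 1.07 in siH3.3. The highest value was that of D16S+, at least 7.35-fold above D0, and the iPSC value was at least 3.47-fold above it. Relative to the common-promoter median the promoter stood at 110% in D16S+ and 100% in iPSCs, beside at most 36.7% at D0. At D0 the Cldn3 window held 1 region, 3872 bp downstream of the TSS and within Wbscr25, which was not called in D16S+ or iPSCs.

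Cldn4 (chr5:135420996-135422804, minus strand) lies next to Cldn3 on chromosome 5. Its promoter was called at 0.562 PPM at D3, 0.654 in D6T-, 1.31 in D12S+, 1.51 in D16S+ and 0.978 in iPSCs, and not at D0, in D9T- or in either siRNA library. The level was highest in D16S+, at least 4.36-fold above D0, and at D0 a weak region just inside the gene, outside the promoter, was called at 0.378 PPM. Relative to the common-promoter median the promoter stood at 53.5% in D12S+, 65.3% in D16S+ and 81.2% in iPSCs, beside at most 36.7% at D0. The promoter window is printed because, of the strongest promoter windows, only this one and that of Krt8 held an AP-1 site (mm9, minus strand, chr5:135422832-135423032, AP-1 site and GC box in capitals).

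Cldn4 promoter: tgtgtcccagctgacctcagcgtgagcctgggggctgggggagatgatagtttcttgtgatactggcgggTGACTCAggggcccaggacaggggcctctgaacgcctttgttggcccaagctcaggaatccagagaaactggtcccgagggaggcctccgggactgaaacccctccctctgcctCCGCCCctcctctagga

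Cldn6 (chr17:23816332-23819413, plus strand) was the single member with a promoter region at D0, and that call belongs to its neighbours as much as to itself. The regions that touch its promoter lay 1829 to 3576 bp upstream of the TSS, also overlapped the promoters of Hcfc1r1, Thoc6 or Tnfrsf12a, and were called in all 9 libraries, with a highest promoter pileup of 1.20 PPM at D0, 4.02 in D6T- and 1.32 in iPSCs. A region at the Cldn6 TSS itself was called only in D16S+ (0.567 PPM, 156 bp downstream) and iPSCs (0.489, 26 bp downstream). A region 1834 bp downstream, in a coding exon, was called from D3 to D12S+ and in the siRNA libraries, was highest in D6T- at 1.82, and was not called at D0, in D16S+ or in iPSCs.

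Cldn7 (chr11:69778281-69781387, plus strand) had no region in its window in 6 of the 9 libraries. It was called at D3 at 0.496 PPM, 2039 bp downstream of the outermost TSS at an internal start site, in D16S+ at 1.28, 651 bp downstream, and in iPSCs at 0.640 and 0.865 near those positions. D16S+ and iPSCs were thus the libraries with the higher levels, at least 3.68-fold and 2.49-fold above D0. These levels were 55.1% and 71.9% of the common-promoter median, beside at most 36.7% at D0.

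Krt8 (chr15:101827142-101834773, minus strand) and Krt18 encode the partner keratins of simple epithelia and lie side by side on chromosome 15, transcribed away from each other. Krt8 followed a course of its own. A region 1161 bp upstream of its TSS was called at 0.728 PPM at D3, 2.90 in D6T-, 0.908 in D9T-, 0.681 in D12S+, 0.992 in D16S+, 1.15 in siNT and 0.964 in siH3.3, and not at D0 or in iPSCs. The D6T- value was the highest (95% interval 2.22 to 3.72), at least 8.36-fold above D0. Relative to the common-promoter median the region stood at 31.9% at D3, 75.6% in D6T-, 60.0% in D9T-, 83.3% in siNT and 66.7% in siH3.3, against 27.9% in D12S+ and 42.9% in D16S+, so the day 6 and day 9 libraries stayed the highest on this scale. An intron 1 region 1171 bp downstream had the same set of calls, from 0.625 PPM in D12S+ to 2.10 in D6T-. At the TSS of Krt8 itself a separate weak region was called only in D12S+ (0.681 PPM), D16S+ (0.614) and iPSCs (0.489), at 27.9%, 26.5% and 40.6% of the common-promoter median, beside 36.7% for the lowest pileup called at D0, so a rise over D0 was not shown on that scale. The upstream region is shown because its 201 bases hold 3 AP-1 sites and 2 E-boxes (mm9, minus strand, chr15:101835834-101836034, all in capitals).

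Krt8 upstream region: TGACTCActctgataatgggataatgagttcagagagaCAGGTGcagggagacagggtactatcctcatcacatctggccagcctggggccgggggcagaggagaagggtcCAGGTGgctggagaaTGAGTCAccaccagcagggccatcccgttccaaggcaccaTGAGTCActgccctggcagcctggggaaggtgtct

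Krt18 (chr15:101858647-101862457, plus strand) had weak promoter regions. They were called at 0.463 PPM at D3, where the summit lay 2442 bp upstream, and at the TSS at 0.654 in D6T-, 0.520 in D16S+ and 0.564 in iPSCs. Among called promoters of their libraries these lay at percentiles 0.908 to 8.40. A region about 10 kb upstream, between both keratin genes, was called in the 8 libraries other than D0, at 0.564 PPM in iPSCs to 1.31 in D6T-.

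Esrp1 (chr4:11259080-11313930, minus strand) encodes a splicing regulator that sets the epithelial forms of many transcripts. Its promoter was called at 0.841 PPM in D6T-, 0.530 in D9T-, 3.12 in D12S+, 2.79 in D16S+, 0.941 in iPSCs and 0.643 in each siRNA library, and not at D0 or D3. It was highest in D12S+ (95% interval 2.35 to 4.06), at percentile 76.8 of called promoters, and was at least 8.03-fold above D0 in D16S+ and 9.00-fold in D12S+. Relative to the common-promoter median the promoter stood at 128% in D12S+, 120% in D16S+ and 78.1% in iPSCs, beside at most 36.7% at D0. In D6T-, D9T-, D16S+ and the siRNA libraries the strongest promoter summit lay 1157 to 1450 bp upstream. D12S+ and iPSCs also had an upstream region, with summits 1483 and 1462 bp from the TSS at 1.76 and 0.677 PPM, but their strongest summit was at the TSS, 3 bp downstream in D12S+ and 34 bp upstream in iPSCs. A further region 2694 to 2832 bp upstream was limited to D12S+, D16S+ and iPSCs, at 0.681, 1.28 and 0.941 PPM. The strong window regions 63292 and 64523 bp downstream lay in the promoter of the neighbouring Dpy19l4, and the latter was called in all 9 libraries.

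**Figure D3:**
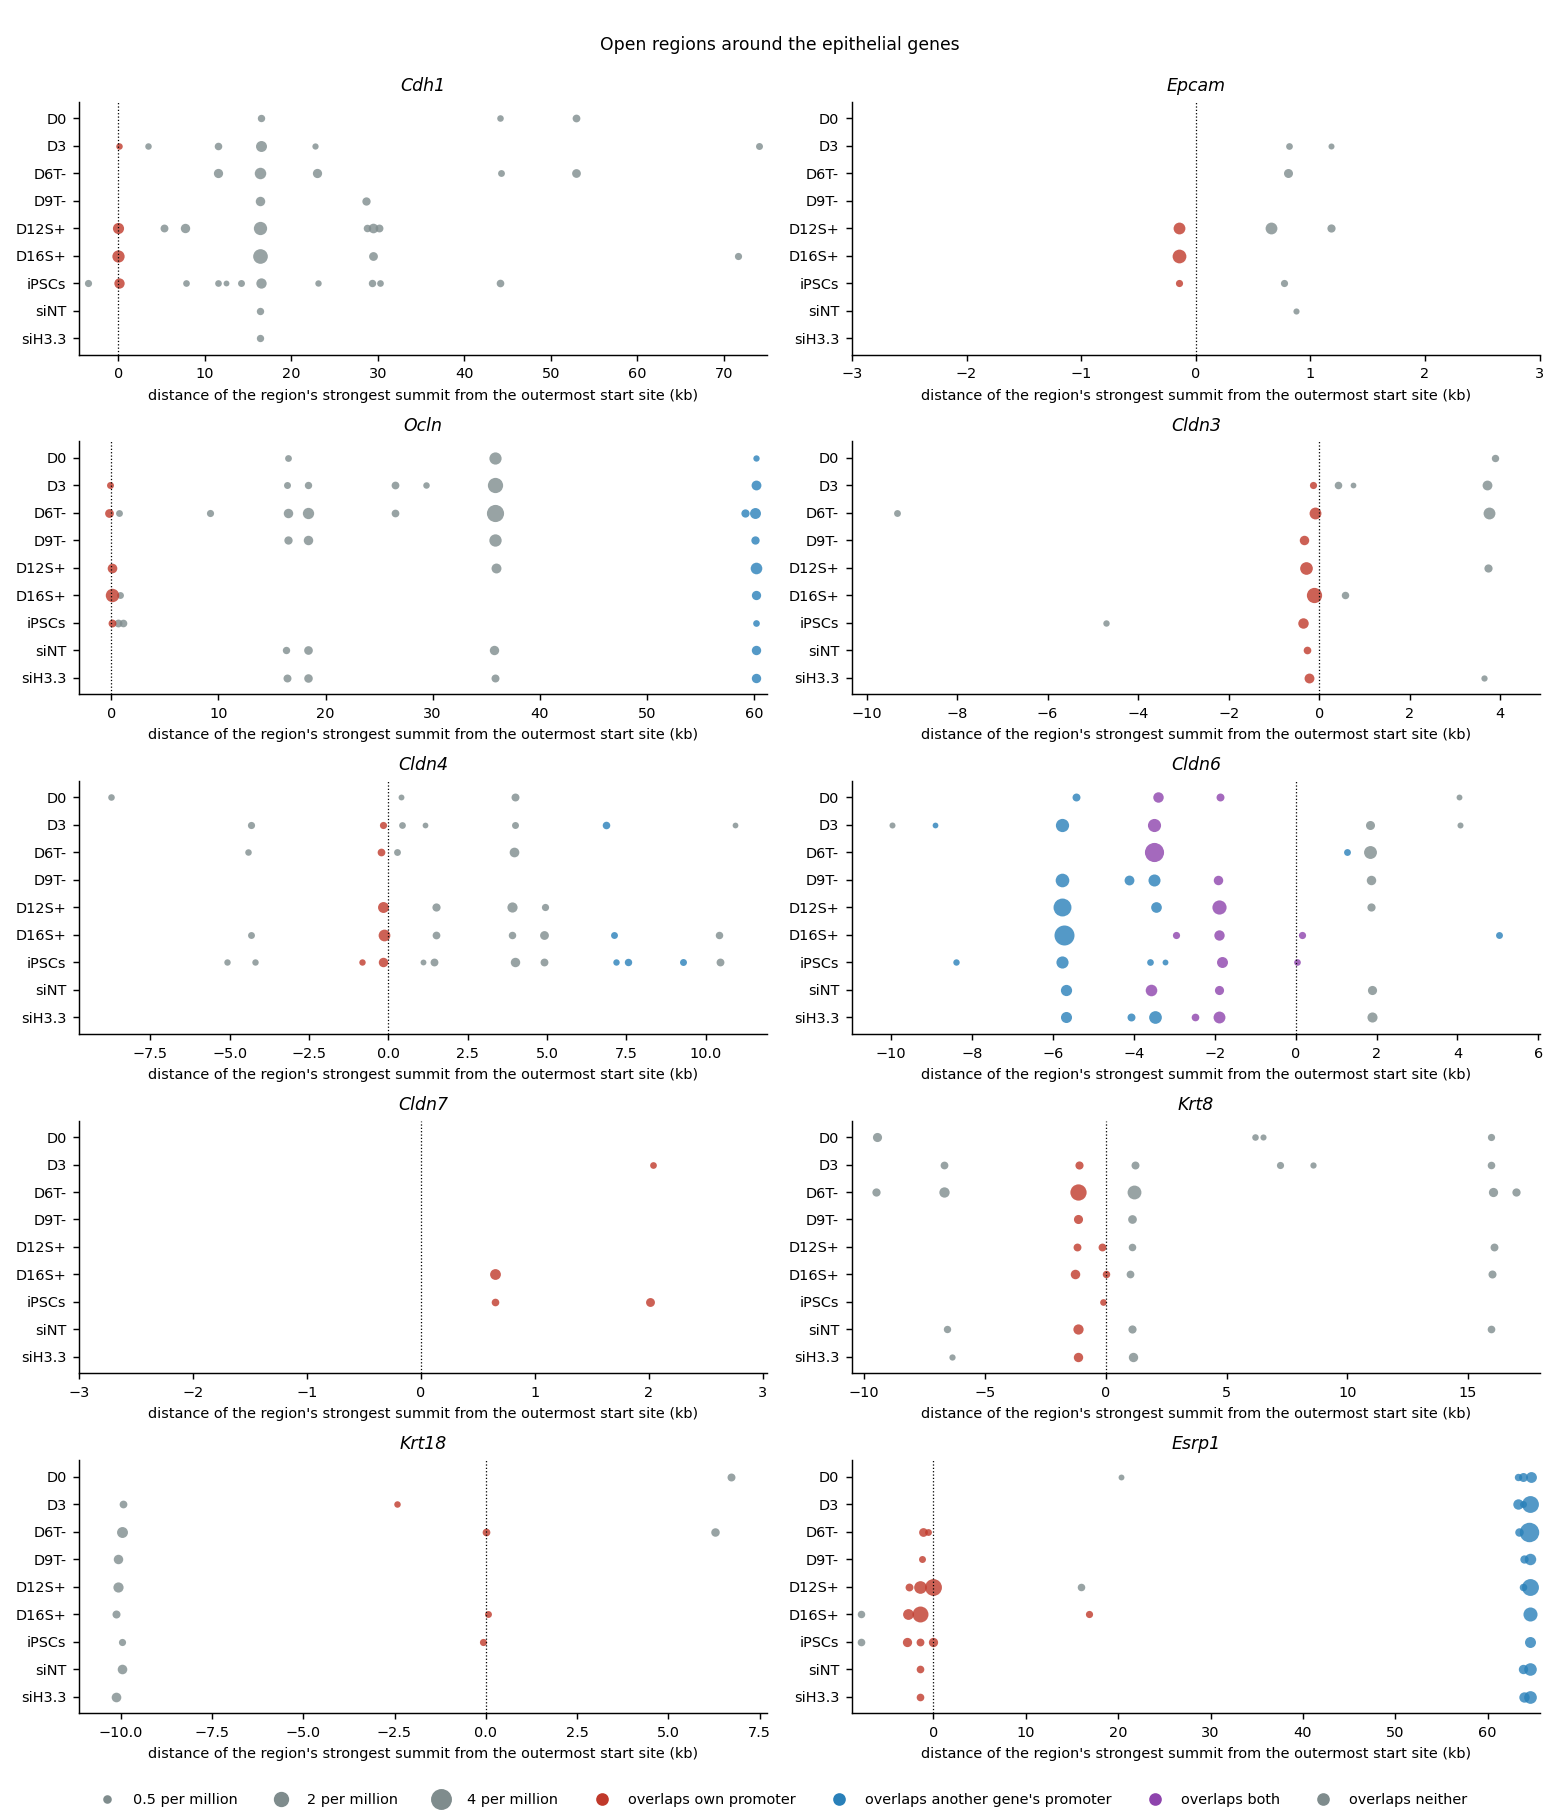
Every region called in the 10 windows, by library (rows) and distance of its strongest summit from the gene's outermost TSS in kb; the area of a point is its pileup in PPM and the colour says whether it overlaps the gene's own promoter, another gene's promoter, both or neither. The Cdh1 region at 16.4 kb is present in every library, whereas the Ocln region at 35.8 kb ends after D12S+.

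Across the loci, regions overlapping between libraries joined into 76, of which 17 overlapped the gene's own promoter and 12 the promoter of another gene. Of the 76, 4 were called in all 9 libraries and 30 in a single library. By the first library of the time course that called them, 20 dated from D0, 26 from D3, 7 from D6T-, 1 from D9T-, 8 from D12S+, 6 from D16S+ and 8 from iPSCs. The number of regions in the windows of the 10 genes was 23 at D0, 44 at D3, 38 in D6T-, 18 in D9T-, 34 in D12S+, 34 in D16S+ and 47 in iPSCs, so the most lay in iPSCs, a library with fewer regions in all than D0 (61615 against 81364).

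Sequence features were described for the promoters and for the other regions. In the 300 bases around the outermost TSS, from 250 bases before it to 49 after it, 9 of 10 genes, all but Cldn7, held at least 1 E-box (CAGGTG, either strand), compared with 19.9% of all protein-coding promoters of the same length. The Cldn7 region 651 bp inside the gene held 4. GC boxes (GGGCGG, either strand) were in 7 of 10, against 43.4%, and AP-1 sites (TGANTCA, the same on either strand) in 1 of 10, against 6.93%. None held an octamer (ATGCNAAT, 2.95% of all promoters) or a Grainyhead site (AACCNGGTT, 0.264%). The observed over expected ratio of CpG lay on both sides of the median of 0.534 over all protein-coding genes: Cdh1 (0.599), Ocln (0.601) and Krt18 (0.603) were above it, and the other genes were below it, down to 0.238 for Krt8. Their GC content was 52.0% to 64.7% against a median of 55.0%.

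In the 201 bases around the strongest summit of each gene's promoter regions, 6 of 10 held an E-box and 2 of 10 an AP-1 site. For Cldn6 that summit lay 5738 bp upstream, since its promoter region joined those of its neighbours. In the strongest region outside any promoter, which 8 genes had, 0 of 8 held an E-box and 4 of 8 an AP-1 site, those of Cdh1, Ocln, Cldn4 and Cldn6. Over all regions of a library the E-box share was 10.3% at D0, 10.5% in D6T- and 21.3% in D16S+, and the AP-1 share was 27.2%, 33.9% and 6.42%. Most promoter summits came from D16S+ and most of the others from D6T-, so position and library cannot be told apart in this contrast. The match of letters is a description and was not tied to binding of any factor.

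Cells given siRNAs against H3.3 at day -2 were compared at day 6 with those given the non-targeting siRNA. No gene's window was at least 2-fold higher, 0 of 8 (0.752% of all genes with a region), or lower, 0 of 8 (0.370%), in siH3.3 than in siNT. Promoter regions were called in 4 of 10 genes in each library, Cldn3, Cldn6, Krt8 and Esrp1, where 54.8% of all protein-coding genes had one in siNT and 54.3% in siH3.3. Among genes called in both, window ratios of siH3.3 to siNT ran from 0.840 for Krt8 (95% interval 0.432 to 1.60) to 1.67 for Cldn3 (0.801 to 3.57), beside a median of 1.04 over all genes. The interval of Cdh1 ran from 0.400 to 2.39, so for this gene a 2-fold change in either direction would lie within counting error. Epcam had a region in siNT only, at 0.413 PPM, the lowest pileup called in that library, and Cldn4 and Cldn7 had none in either. The depletion of H3.3 was not checked here, since accessibility does not measure the H3f3a and H3f3b transcripts.

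In PPM, both siRNA libraries stood below D6T- at the genes called there. Relative to the common promoters this order turned at Cdh1, Cldn3, Cldn6, Krt18 and Esrp1 in both siRNA libraries and at Epcam and Krt8 in siNT. Several of these differences were small, as for Cldn6 at 107% in siNT against 105% in D6T-. No interval was computed on this scale, so they may lie within counting error. The Cldn6 and Esrp1 window values came from regions that overlap neighbours' promoters. The highest window level for Ocln was 0.964 PPM in each siRNA library against 3.23 in D6T-, but not always at the same region. The D6T- value was that of the region 35816 bp downstream, which stood at 0.964 in siNT and 0.696 in siH3.3. The 0.964 of siH3.3 came from a region about 60.2 kb downstream, in the promoter of the neighbouring Gtf2h2. The window level of Cdh1 was 0.597 and 0.589 against 1.45. The common promoters were also lower, at 1.38 and 1.45 against 3.83. As a percentage of the common-promoter median, the Cdh1 intron 2 region was at 43.3% in siNT and 40.7% in siH3.3 against 37.8% in D6T-, and the region upstream of Krt18 was at 73.3% and 70.4% against 34.1%. The Ocln region 35816 bp downstream stayed lower on this scale, at 70.0% and 48.1% against 84.1%.

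**Figure D4:**
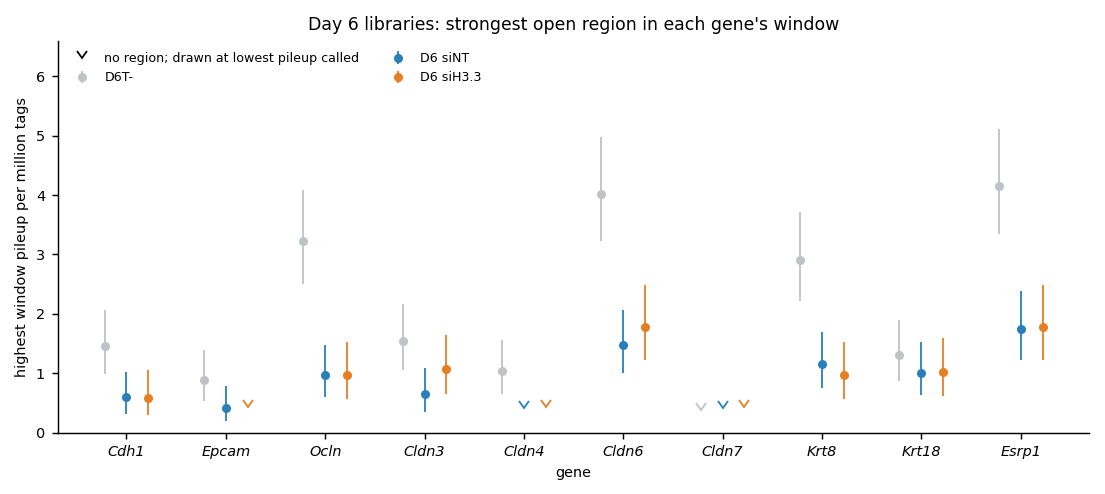
Highest window pileup in PPM of each gene in the 3 day 6 libraries (D6T- grey, siNT blue, siH3.3 orange) with exact Poisson 95% intervals; open carets stand at the lowest pileup called where a window had no region. The siNT and siH3.3 intervals overlap for every gene called in both. In PPM the D6T- point is the highest at every gene but Cldn7, which had no region. Relative to the common promoters this order turns at Cdh1, Cldn3, Cldn6, Krt18 and Esrp1 in both siRNA libraries and at Epcam and Krt8 in siNT. Several of those differences are small, and no interval was computed on that scale.

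The lists around these genes were read for how many promoters were called. Over all protein-coding genes the share called was 58.0% at D0, 67.8% at D3, 68.3% in D6T- and 50.4% in D9T-. It was 63.0% in D12S+ and D16S+ and 63.9% in iPSCs. List counts near these shares, such as 7 of 14 epithelial regulators at D0, do not set a list apart. Of 14 adherens junction and desmosome genes, 5 had a promoter region at D0, 13 at D3, 14 in D6T- and D16S+ and 13 in iPSCs. At D3 the median of the 14 promoters was 0.761 PPM, beside a common-promoter median of 2.28. The lowest pileup called at D0 stood at 36.7% of the D0 common-promoter median. Some D3 promoters of this list lay under that share and would not have been called at D0. Of the genes without a promoter region at D0, the highest in iPSCs were the desmosomal cadherin Dsg2 (1.39 PPM), the desmosomal plaque gene Pkp2 (1.20) and Ctnna1, which encodes alpha-catenin (1.02). These promoters were called in D6T-, a library in which those of Cdh1 and Epcam had no call. Of 15 tight junction and polarity genes, 12 were called at D0 and 15 at D3, in D6T-, D12S+, D16S+ and iPSCs. The 3 without one at D0 were F11r, which encodes the junctional adhesion molecule JAM-A (1.35 PPM in iPSCs), Marveld3 (0.903) and Marveld2, which encodes tricellulin (0.564).

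Of 14 other claudins, 6 were called at D0 and 7 in iPSCs, but these were not the same set. Of the 8 without a region at D0, 4 had one in iPSCs, the highest being Cldn23 (0.865 PPM), Cldn5 (0.790) and Cldn11 (0.640), while Cldn10, Cldn18 and Cldn19 were called at D0 and not in iPSCs. Of 8 other epithelial keratins, 4 were called at D0, 1 in D16S+ and 3 in iPSCs, where Krt14 was newly called at 0.414. The keratins other than Krt8 and Krt18 were therefore mostly without promoter regions late in the course.

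Of 14 epithelial regulators in the annotation, 7 were called at D0, 11 in D6T-, 4 in D9T-, 11 in D16S+ and 12 in iPSCs, with Grhl3 at 1.17, Foxa1 at 0.602 and Grhl2 at 0.527 PPM in iPSCs. Of 11 surface and trafficking genes, 4 were called at D0, 2 in D9T- and 10 in D16S+ and iPSCs, and those gained were led in iPSCs by Spint1 (1.05 PPM), Lad1 (0.903) and Mal2 (0.715). Lad1 had a promoter region in D16S+ and iPSCs and in no other library, the late course also seen at the Cldn6 TSS. The miR-200 family, known to target Zeb1 and Zeb2, is encoded by 5 hairpins at a pair of loci. For a hairpin, the promoter counted was the 3 kb upstream of its own annotated start. These calls need not describe the promoter of the primary transcript. Mir200c and Mir141, which share a locus and hence the same region, were called at 0.430 PPM at D3, 0.520 in D16S+ and 0.602 in iPSCs, whereas Mir200a and Mir429 were called only at D0 (0.441) and D3 (0.397) and Mir200b in none of the libraries.

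Of 12 mesenchymal genes, all 12 had a promoter region at D0 and 9 still had one in iPSCs, among them Snai1, Snai2, Zeb1 and Zeb2, which encode E-box-binding repressors. The 3 not called were Twist2, S100a4 and Acta2. These names were picked after their values were seen. The median of the 12 promoters was 0.757 PPM at D0, 2.78 in D6T- and 0.621 in iPSCs. The common-promoter median was 0.946, 3.83 and 1.20 in these libraries, so the higher PPM of D6T- was shared with the common promoters.

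**Figure D5:**
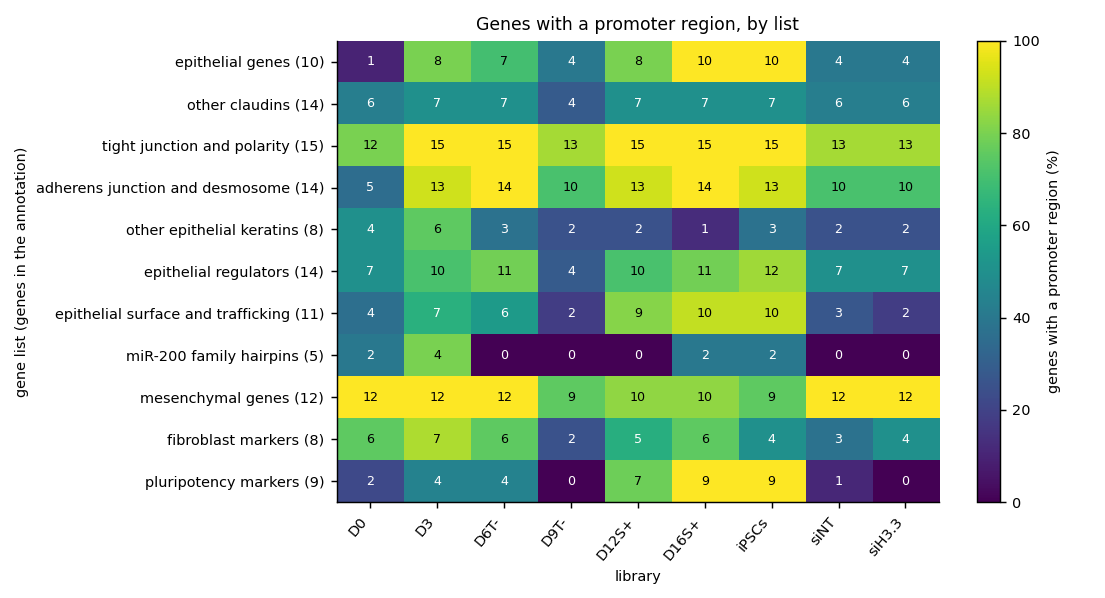
Number (printed) and percentage (colour, 0 to 100) of the annotated genes of each list with a promoter region in each library; list sizes are in parentheses. The epithelial genes go from 1 of 10 at D0 to 10 of 10 in D16S+ and iPSCs, and the mesenchymal genes from 12 of 12 at D0 to 9 of 12 in iPSCs. Over all protein-coding genes the share was 58.0% at D0 and 63.9% in iPSCs.

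Among 14921 protein-coding genes ranked, those whose promoter profile over the 7 time-course libraries was most like the median of the 10 were Prss41, Pak7, Kcnip2, Cyb5r2 and BC068157, with Pearson's r of 0.988 to 0.989. Kcnip2, for instance, had no promoter region at D0 and 1.98 PPM in D16S+. Within the 10 genes, r with their own median, which each gene helps to set, was 0.991 for Cldn4, 0.959 for Esrp1, 0.941 for Ocln and 0.931 for Cldn3, and 0.434 for Krt18, 0.274 for Krt8 and 0.153 for Cldn6. The r values describe 7 points that share libraries and depth.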

How the data were processed

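ATAC-Seq peak files of 9 libraries, 1 per condition, were analysed, so no test between conditions was made. The authors sequenced 51 bp reads, aligned them to mm9 with STAR, removed duplicates with Picard and called peaks per library with MACS2 2.1.0.20151222, without a control or local background, at a q-value cutoff of 0.05 with tags extended to 200 bp. The deposited pileup is an unscaled signal that counts the extended tags covering a summit. The deposited fold enrichment is a ratio to evenly spread tags, and significance was deposited as −log10 of the p-value and q-value.

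Here, overlapping peaks of a library were merged, gene models were those of GENCODE vM1 (mm9), and the highest pileup of each promoter and window was divided by the library's tags and multiplied by 1000000 (PPM). A promoter without a region was set to the lowest pileup called, and folds against it are lower bounds. Intervals are exact Poisson for levels and Clopper-Pearson for ratios, at 95%, and ignore that both ends of a fragment are not independent and that a summit is a maximum. All 6 checks on simulated peaks passed. Named genes were the 10 genes; per list, the 3 highest in iPSCs among those without a promoter region at D0, and the miR-200 genes; the 5 nearest profiles; and genes whose promoter holds a region of a window. Sequences were read from the mm9 genome (NCBIM37), and motifs were searched within 100 bp of summits. The genes and lists were chosen with earlier results of these data known. Tfap2a and Tfap2c, 2 of the 16 listed regulators, were not analysed here, and 1 surface gene and the Esrp1 promoter sequence are not reported here. Tools were scipy 1.17.1, pandas 2.3.3, numpy 2.4.6 and matplotlib 3.10.9 under Python 3.11.15.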

Additional observations from a re-analysis of the deposited data

How the results depend on the processing

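Of 149 recomputed values, 132 moved by no more than their counting interval, or 1.5 times for a count, and 17 moved further. With only the 36708 strongest regions of each library, promoters called were 1 of 10 at D3 and 3 of 10 in D6T-, windows called at D3 were 5 of 10, windows at least 2-fold higher in iPSCs than at D0 were 1, and the D6T- median was 1.36 PPM, since the lowest pileup kept is higher there. A −log10 q of at least 3 left 1 such window, fold enrichment as deposited 1 and scaling by the promoters called in all 9 libraries 0. With a promoter of 1 kb upstream and 100 bp downstream, the calls were 0 at D0 and 2 in each of D9T-, siNT and siH3.3. Scaling by the common promoters turned the ratio of the median promoter level in D6T- against D0 from 2.16 to 0.532, took D3 from 1.48 to 0.613, D12S+ from 3.85 to 1.49 and D16S+ from 4.56 to 1.86, with D0 as the lowest pileup called throughout. Without D9T-, 2 of the 5 nearest profiles were kept. The promoter of the outermost TSS only, an alternative chosen after seeing the data, changed no count by over 1.5 times, nor did a flank of 5 kb or leaving out regions in a neighbour's promoter. No paired analysis was possible because each condition had 1 library. No replicate could be left out for the same reason. Depth limits what can be called: the lowest pileup called was 7 tags in D9T- and 11 at D0, and the weakest promoter calls were at or near that number.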
